A study of Canis lupus familiaris with 30 samples.

Results

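The lymph nodes of dogs with T-cell lymphoma were compared with those of dogs with B-cell lymphoma at 6 weeks of CHOP, to see how much of the lineage difference was left under treatment. CHOP is the combination of cyclophosphamide, doxorubicin, vincristine and prednisone. The members are the 10 libraries taken at 6 weeks from dogs with a flow cytometry immunophenotype, of 30 libraries in the series. Of these, 3 carry the label T-Cell (dogs 028, 036 and 038) and 7 the label B-Cell (dogs 003, 027, 029, 030, 033, 034 and 037). Each of the 10 dogs also gave a library immediately before treatment, and these 10 libraries served as the reference for the untreated difference. The 5 dogs with no immunophenotype were not used. Every sample was a fine needle aspirate of an enlarged lymph node of a pet dog, whose breed, sex and age are not in the labels used here. A single prednisone injection before enrollment was permitted, so the libraries before treatment may not all be free of steroid. An aspirate holds whatever cells the node holds, and the immunophenotype is a label of the dog, not of the cells sequenced.

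T-cell lymphomas carry the CD3 chains and the kinases and adaptors that pass on the T-cell receptor signal. B-cell lymphomas carry the CD79 chains and CD22 of the B-cell receptor complex, the kinase BTK and the transcription factor PAX5, which sets B-cell identity. B cells also present antigen through MHC class II, and plasma cells, the secreting end stage of the B lineage, lose PAX5 and gain XBP1 and PRDM1. Lymph nodes further hold normal lymphocytes, macrophages, endothelium and blood.

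Values are FPKM, read counts scaled by transcript length and sequencing depth. Differences are T-Cell minus B-Cell in log2(FPKM+1), which understates the change of weakly expressed genes. At 6 weeks, 15696 gene IDs with a mean FPKM above 1 over the 10 libraries were tested with limma, with Benjamini-Hochberg adjustment over all of them. Gene symbols could be given to 4054 of these IDs. In bulk samples, fewer cells of a type and less RNA per cell cannot be told apart. Total counts at 6 weeks were 4318394 to 15255940 in the T-Cell dogs and 6778831 to 22952193 in the B-Cell dogs, and the shallowest library was that of dog 036. The FPKM sums of dogs 033 (2253170) and 036 (1540380) stood above those of the other 8 libraries at 6 weeks, the highest of which was 1169440.

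The labels were checked first against the lineage markers in every library. CD3E (ENSCAFG00000012802) encodes the epsilon chain of CD3. Before treatment its FPKM were 188, 328 and 14.6 in T-Cell dogs 028, 036 and 038. In the B-Cell dogs the lowest was 1.56, the median 9.28 and the highest 178, in dog 029. In CD3E the library labelled T-Cell of dog 038 therefore lay among the B-Cell dogs, and the library labelled B-Cell of dog 029 near T-Cell dog 028. PAX5 (ENSCAFG00000002357) showed the reverse for dog 038, with FPKM of 1.52, 0.291 and 62.8 in dogs 028, 036 and 038 and 17.8 to 60.2 in the B-Cell dogs, of which dog 029 was the lowest. Dog 029 thus went against its label in CD3E, while its PAX5 was well above that of dogs 028 and 036. CD79A was not analysed here. The markers, gene counts and gene lists are given below with and without dogs 038 and 029, as are IL2RA and SOD2 of the leading genes. Because those dogs were singled out by lineage markers before treatment, leaving them out makes lineage genes differ by construction, above all at that time.

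At 6 weeks the CD3E FPKM were 188, 64.7 and 37.9 in dogs 028, 036 and 038. In the B-Cell dogs they were 33.4 in dog 003, 3.00 in dog 027, 245 in dog 029, 5.65 in dog 030, 3.54 in dog 033, 149 in dog 034 and 10.1 in dog 037. The groups overlapped through dogs 029 and 034, both above dogs 036 and 038. The difference was 1.91 (SE 1.22, 95% interval −0.74 to 4.56, limma adjusted p = 0.763), against 2.89 (SE 1.23, adjusted p = 0.235) before treatment. A two-sided exact permutation test over the 120 choices of 3 of 10 dogs, which can give no p under 0.00833, gave p = 0.242 at 6 weeks and 0.0917 before treatment.

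The PAX5 FPKM at 6 weeks were 1.067, 12.7 and 13.3 in dogs 028, 036 and 038. Those of the B-Cell dogs were 42.9 in dog 003, 26.0 in dog 027, 7.2 in dog 029, 21.8 in dog 030, 18.99 in dog 033, 13.03 in dog 034 and 42.2 in dog 037. Only B-Cell dogs 029 and 034 lay in the range of the T-Cell dogs. The difference was −1.59 (SE 0.64, 95% interval −2.97 to −0.20, limma adjusted p = 0.739) at 6 weeks and −2.39 (SE 0.93, adjusted p = 0.205) before treatment. The exact permutation p was 0.075 and 0.0667, and Benjamini-Hochberg values over the 4 exact tests of both genes were 0.122 to 0.242. Without dogs 038 and 029 the difference at 6 weeks was 3.01 for CD3E (limma adjusted p = 0.478) and −2.30 for PAX5 (adjusted p = 0.355).

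**Figure D1:**
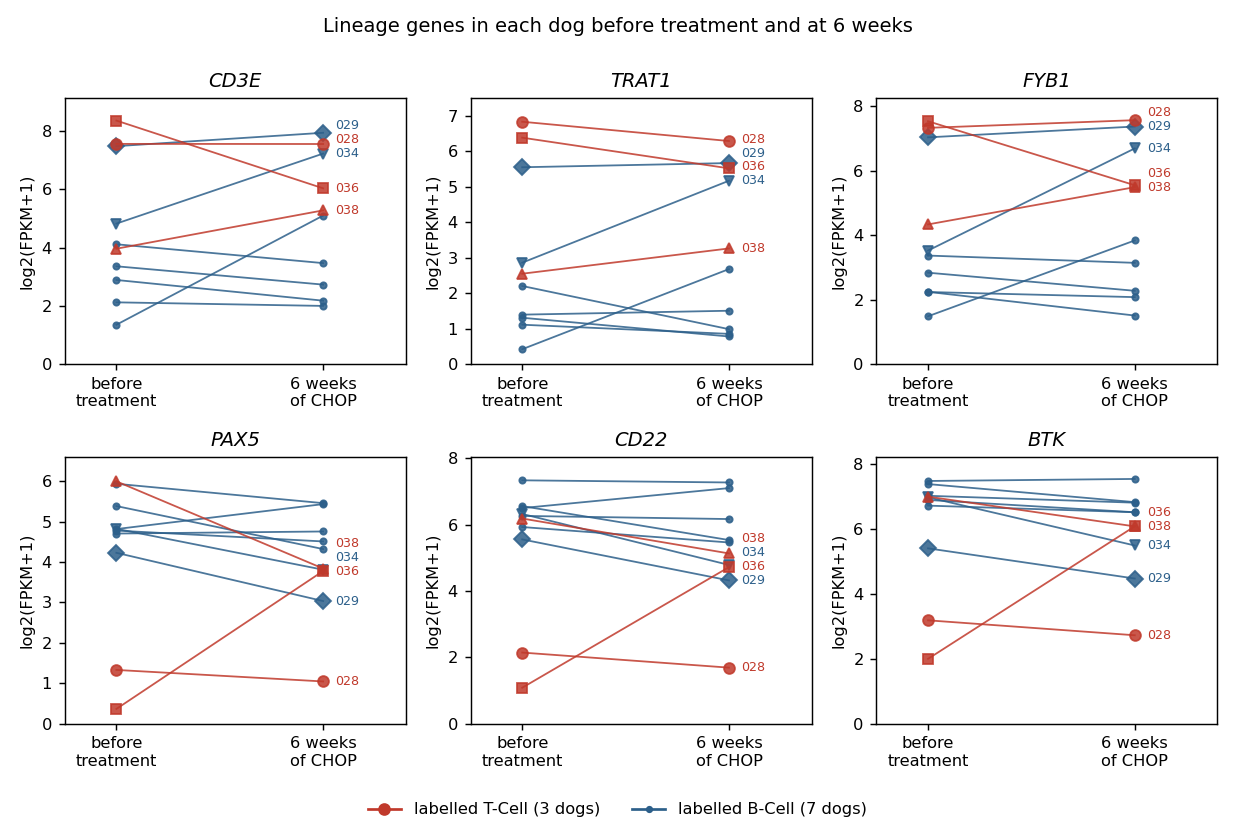
log2(FPKM+1) of 3 T-cell genes (CD3E, TRAT1, FYB1) and 3 B-cell genes (PAX5, CD22, BTK) in each dog before treatment and at 6 weeks of CHOP; each line is 1 dog, red labelled T-Cell and blue labelled B-Cell. Dog 036 moves from the T-cell extreme toward the B-Cell dogs in all 6 genes, dog 034 moves up in the 3 T-cell genes, and dog 028 stays near its level before treatment.

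Across all genes, 0 of 15696 passed an adjusted p of 0.05 at 6 weeks (smallest adjusted p = 0.739, limma), with 1044 at an unadjusted p under 0.05 (6.65%), 418 higher in T-Cell dogs (2.66%) and 626 lower (3.99%). Before treatment, 5 of 13877 gene IDs passed (2 higher in T-Cell dogs, 0.0144%, and 3 lower, 0.0216%), with 2635 at an unadjusted p under 0.05 (19%), 1185 higher (8.54%) and 1450 lower (10.4%). The groups did not overlap in 266 genes at 6 weeks (1.69%) and in 609 before treatment (4.39%). The median size of the difference was 0.33 at 6 weeks and 0.39 before treatment. Differences over 1 on the log2 scale were seen for 1287 genes at 6 weeks and 1934 before treatment, and differences over 2 for 149 and 335. Of the 13657 genes tested at both times, the difference was smaller at 6 weeks in 7673 (56.2%). Genes picked by either time lean toward that time. Those with an unadjusted p under 0.05 before treatment (2575 genes) had a median size of 1.03 then and 0.44 at 6 weeks, and those with such a p at 6 weeks (998 genes) had 0.72 before treatment and 1.11 at 6 weeks.

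The test of the change itself compared each dog's change over 6 weeks between the 3 T-Cell and the 7 B-Cell dogs. Of 14587 genes, 0 passed (smallest adjusted p = 0.213, limma), with 1842 at an unadjusted p under 0.05 (12.6%), 966 with a higher change in T-Cell dogs (6.62%) and 876 with a lower one (6.01%). The changes of the groups did not overlap in 334 genes (2.29%), 215 higher (1.47%) and 119 lower (0.816%) in T-Cell dogs. A smaller lineage difference at 6 weeks was thus not shown gene by gene. It was also a matter of which dogs were included. Leaving out dogs 038 and 029, singled out by lineage markers before treatment, favours a larger difference at that time. Dog 034, whose CD3E at 6 weeks was above that of dogs 036 and 038, was kept. The contrast between the times in this fit is thus partly set by the choice. Without dogs 038 and 029, 3142 of 13538 genes passed before treatment (23.2%, of which 1512 higher in T-Cell dogs, 11.2%, and 1630 lower, 12%) and 0 of 15334 at 6 weeks (smallest adjusted p = 0.236, 1385 genes at an unadjusted p under 0.05).

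The 3142 genes gave a yardstick of the difference between dogs 028 and 036 and 6 B-Cell dogs before treatment, with a median size of 1.41. Of these, 3074 were tested at 6 weeks, where 2788 kept their direction, the median signed difference was 0.64, and 1398 kept at least 0.5 of their size. The genes were chosen for a large difference before treatment, so a smaller value at 6 weeks is partly set by the choice. They were read in the same dogs at both times and are not independent. The share of all genes that kept their direction is not given here. In the same genes each dog was placed by its median distance, signed toward the T-cell side, from the mean of the other B-Cell dogs at the same time, dog 029 left out. Dog 028 went from 1.25 to 0.96, with 96.3% of the genes still on the T-cell side. Dog 036 went from 1.56 to 0.30, with 66.5% on that side. Dog 034, labelled B-Cell, went the other way, from 0.09 to 0.69, with 82.9% of the genes on the T-cell side at 6 weeks. Dog 034 was among the 6 B-Cell dogs that chose the genes, so its low start is partly set by the choice. Dogs 038 and 029, which did not choose the genes, moved little, from 0.22 to 0.29 and from 0.67 to 0.62.

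The T-cell lists held 26 genes with a symbol and the B-cell lists 14, and a mean level over each placed the dogs on a plane of both lineages. T mean minus B mean at 6 weeks was 2.95 in dog 028, 0.30 in dog 036 and −0.57 in dog 038. In the B-Cell dogs it was −1.88 in dog 003, −2.70 in dog 027, 1.90 in dog 029, −2.75 in dog 030, −2.68 in dog 033, 1.14 in dog 034 and −2.46 in dog 037. The groups overlapped, since dogs 029 and 034 exceeded dogs 036 and 038. The group means were 0.90 (SD 1.83, n = 3) and −1.35 (SD 1.99, n = 7), a difference of 2.24, against 3.48 before treatment, when the means were 1.48 (SD 3.00) and −2.00 (SD 1.47).

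These means hid opposite movements of single dogs. In dog 036, 21 of the 26 T-cell genes were lower at 6 weeks (median change −1.3) and 11 of the 14 B-cell genes were higher (median 2.21). In dog 028, 15 of 26 T-cell genes were lower with a median change of −0.02. In dog 038, 23 of 26 T-cell genes were higher (median 1.2). Among the B-Cell dogs, all 26 T-cell genes were higher in dog 034 (median 2.43) and 23 in dog 003 (median 1.83), while 25 of 26 were lower in dog 033 (median −0.53). Dog 029 changed by a median of 0.27, and dogs 027, 030 and 037 by −0.29 to −0.04. T mean minus B mean changed by −3.28 in dog 036 and by 2.84 and 1.54 in dogs 034 and 003, which brought the group means closer, while the change of 1.39 in dog 038 and those of −0.55 to 0.82 in the other 6 dogs were smaller.

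**Figure D2:**
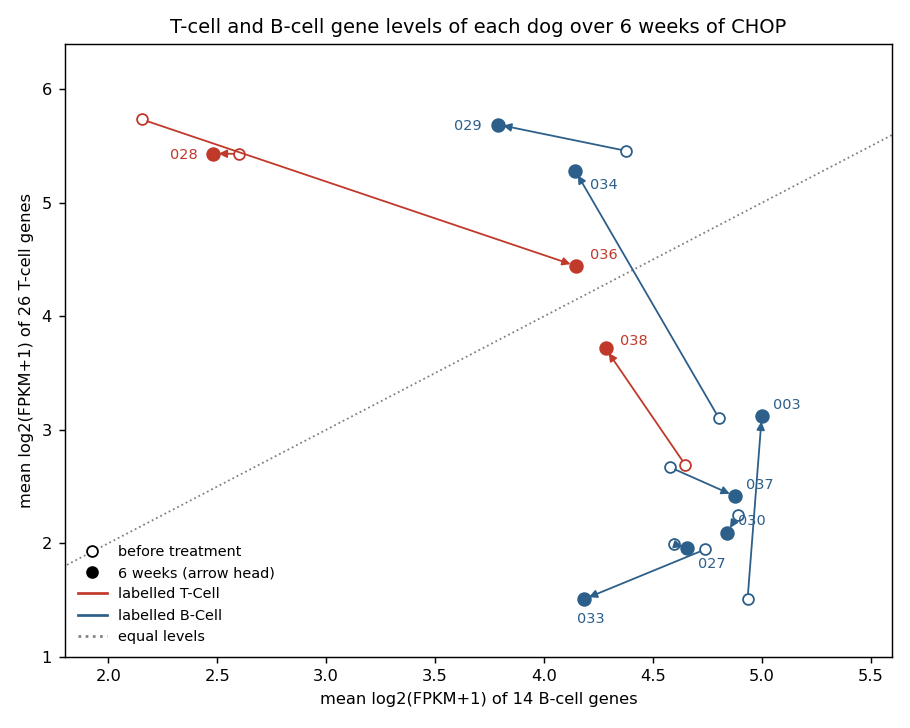
Mean log2(FPKM+1) of 26 T-cell genes against that of 14 B-cell genes in each dog; open circles are libraries before treatment, filled circles those at 6 weeks, arrows join the 2 libraries of a dog, and the dotted line marks equal means. Dog 036 moves from the upper left toward the line and dog 034 crosses it upward, while most B-Cell dogs stay in the lower right.

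The T-cell receptor list was on the T-cell side at both times. At 6 weeks all 9 members tested had a positive difference, 0 passed and 2 had an unadjusted p under 0.05 (2.66% of all genes in that direction), with a median of 1.63 against 2.54 before treatment. In the test of the change 0 of 9 members had an unadjusted p under 0.05. The median of all genes tested was −0.08 at 6 weeks and −0.01 before treatment. TRAT1, an adaptor that holds the receptor complex together, had FPKM of 77.5, 45.0 and 8.61 in the T-Cell dogs and 0.720, 1.84 and 50.01 (lowest, median, highest) in the B-Cell dogs, with a difference of 2.50 (SE 1.11). CD3D, the delta chain of CD3, had 115, 49.2 and 17.5 in T-Cell dogs and 8.52, 44.0 and 49.8 in B-Cell dogs. Its difference was only 0.54 (SE 0.59), and B-Cell dogs with low CD3E such as dog 033 had a CD3D FPKM of 46.1. The 2 CD3 chains thus did not rank the B-Cell dogs alike.

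The T-cell signalling list had 15 of 17 positive differences with a median of 1.4 at 6 weeks and 1.99 before treatment, again with 0 past the threshold. FYB1, an adaptor of T-cell adhesion, had FPKM of 189, 45.9 and 44.0 in T-Cell dogs and 1.85, 7.85 and 165 in B-Cell dogs (difference 2.36, SE 1.17). Its highest B-Cell values were those of dogs 029 and 034 (165 and 103), which also had the highest CD3E of all B-Cell dogs. ETS1, a transcription factor shared by lymphocytes, differed by 0.36 (SE 0.47), and STAT4, which acts in the IL-12 response, by −0.68 (SE 0.48). Over both T-cell lists, 23 of 26 genes had the same sign at both times and 21 had a smaller difference at 6 weeks. The median went from 2.13 to 1.48. These genes were read in the same dogs and are not independent, and the share of all genes with the same sign is not given here.

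The B-cell receptor list had 5 members with a symbol, of 22 listed, and 4 of 5 were lower in T-Cell dogs at 6 weeks, with a median of −0.79 against −0.72 before treatment. CD22, an inhibitory coreceptor, had FPKM of 2.23, 25.4 and 34.1 in T-Cell dogs and 19, 45.5 and 154 in B-Cell dogs (difference −1.96, SE 0.77). Its difference before treatment was −3.21 (SE 0.84), when dog 036 had only 1.12. CD37, a B-cell tetraspanin, differed by −0.79 (SE 0.28) and CD83, an activation marker, by −0.26 (SE 0.48). TNFRSF13B, a receptor for the survival factors BAFF and APRIL, was named after its values were seen. It was the list's sole member whose groups did not overlap, with 1.8, 2.27 and 2.33 in T-Cell dogs and at least 2.48 in B-Cell dogs. Groups that do not overlap with T-Cell dogs lower were found for 1.19% of all genes.

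The B-cell signalling list was lower in T-Cell dogs for 8 of 8 members at both times, and its median went from −2.36 to −1.23. BTK had FPKM of 5.64, 67.1 and 67.0 in dogs 028, 036 and 038 at 6 weeks, and 21.3, 91.0 and 187 in B-Cell dogs (difference −1.35, SE 0.75). Before treatment dog 036 had a BTK FPKM of 3.01. Dog 036 also went from below to well above the level of dog 028 in SWAP70, which acts in B-cell activation (3.37 before, 74.8 at 6 weeks), and in MEF2C, a B-cell transcription factor (0.522 and 39.3). The differences of SWAP70 and MEF2C at 6 weeks were −1.28 (SE 0.59) and −1.23 (SE 0.79).

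The change of the lineage genes depended on dog 036, the only dog whose omission reversed the change of CD3E and PAX5. Other dogs also moved in CD3E. CD3E changed by −2.33 in dog 036, and by 3.75 and 2.40 in B-Cell dogs 003 and 034, which also brought the groups closer. In T-Cell dog 038 it changed the other way, by 1.32. With all dogs, the change of the difference was −0.98 for CD3E (SE 1.02, limma adjusted p = 0.654) and 0.80 for PAX5 (SE 0.88, adjusted p = 0.671). Without dog 036 it was 0.01 for CD3E and −0.74 for PAX5. The median change went from −0.65 to 0.01 for the T-cell receptor list and from 1.3 to −0.08 for the B-cell signalling list. Dog 036 also had the shallowest library at 6 weeks, and its 2 libraries were the only pair whose deviations from the group means did not correlate (r = −0.06 across genes, against 0.22 to 0.88 in the other 9 dogs). The part of depth in its result was not tested.

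Dogs 038 and 029 were singled out by lineage markers before treatment, so leaving them out favours a larger difference at that time. Without them, 3 of the 4 lineage lists had larger medians at both times, and 0 genes of the 4 lists passed at 6 weeks or in the change. Before treatment 23.2% of all genes passed in this fit. The T-cell receptor list had a median of 4.13 before treatment, with 9 of 9 genes past the threshold, and 2.39 at 6 weeks with 0 of 9. The T-cell signalling list had 3.33 (13 of 17 past) and 2.46 (0 of 17), and the B-cell signalling list −3.99 (6 of 8 past) and −1.75 (0 of 8). The B-cell receptor list was the exception, with −0.60 before treatment (2 of 5 past) and −0.999 at 6 weeks (0 of 5). With 2 T-Cell dogs left, these values are those of dogs 028 and 036.

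IL2RA was the one named gene past the threshold before treatment and had the smallest p among named genes lower in T-Cell dogs at 6 weeks. It encodes the alpha chain of the interleukin-2 receptor, known as CD25. Before treatment its FPKM were 1.76, 0.968 and 2.33 in dogs 028, 036 and 038, and 7.52, 17.3 and 36.7 in B-Cell dogs (difference −2.76, SE 0.39, limma adjusted p = 0.0456). At 6 weeks they were 1.93, 9.46 and 7.46 in T-Cell dogs and 15.3, 19.7 and 32.3 in B-Cell dogs (difference −1.75, SE 0.38, adjusted p = 0.739). The groups did not overlap at either time, and dog 038 lay below every B-Cell dog in IL2RA at both. Groups did not overlap with T-Cell dogs lower for 2.69% of all genes before treatment and 1.19% at 6 weeks. IL2RA was picked for its small p under these labels, so the place of dog 038 is largely set by the choice. Without dogs 038 and 029 the difference was −2.93 (adjusted p = 0.0033, limma) before treatment and −2.00 (adjusted p = 0.288) at 6 weeks. The other 4 IDs past the threshold before treatment have no symbol here. One of them, ENSCAFG00000031971, was listed at 0 in all 3 T-Cell dogs and at 85.7 to 249 in the B-Cell dogs before treatment. At 6 weeks it ranged from 0 to 74.8 in T-Cell dogs and from 0 to 167 in B-Cell dogs.

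Of the genes with a symbol, 19 of the 20 that make up the 10 with the smallest p in each direction at 6 weeks are described next, all with an adjusted p of 0.739. MED12L, a paralog of a Mediator subunit, had FPKM of 102, 12.9 and 13.5 in T-Cell dogs and 0.145, 0.731 and 7.31 in B-Cell dogs. The groups did not overlap, as was so with T-Cell dogs higher for 0.51% of all genes. The difference was 3.50 (SE 0.75), and over the alternatives it was 2.55 to 4.54 with an adjusted p of 0.288 to 0.982. Before treatment dogs 028 and 036 had 119 and 334 and dog 038 had 1.18, within the range of the B-Cell dogs.

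KRT18, a keratin of simple epithelia, had FPKM of 8.54, 13.1 and 14.5 in T-Cell dogs. In B-Cell dogs it was 0.308 to 1.68 except for dog 034, which had 8.90. The difference was 2.64 (SE 0.58, limma adjusted p = 0.739), and without dog 034 it was 3.01 with an adjusted p of 0.0319, limma. Dog 034 was the only B-Cell dog in the range of the T-Cell dogs, so this call is largely set by leaving it out. IL13RA2, a decoy receptor for interleukin-13, had 2.39, 47.2 and 13.5 in T-Cell dogs and 0.283, 0.463 and 9.49 in B-Cell dogs (difference 2.50, SE 0.81). Its difference before treatment was −0.11 (SE 0.54), when its FPKM in T-Cell dogs were 0.312 to 1.65.

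SOD2, the mitochondrial superoxide dismutase, differed by less but did not overlap at either time. Its FPKM at 6 weeks were 45.0, 62.3 and 114 in T-Cell dogs and at most 44.5 in B-Cell dogs (difference 0.92, SE 0.29). UGP2, which makes UDP-glucose, had 66.0, 66.3 and 55.6 against at most 53.3 (difference 0.96, SE 0.30). SPART, which acts on lipid droplets and endosomes, had 102, 52.1 and 37.1 against at most 35.4 (difference 1.09, SE 0.34). The other genes described in this direction were SLC15A1, a peptide transporter (2.49, SE 0.66), KCNE3, a potassium channel subunit (1.67, SE 0.45), and GPC4, a glypican (1.88, SE 0.57). In these 3 genes the groups overlapped at 6 weeks. Without dogs 038 and 029 the difference of SOD2 at 6 weeks was 0.49 (adjusted p = 0.646, limma).

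Of the 10 genes lower in T-Cell dogs, 8 did not overlap between groups at 6 weeks, against 1.19% of all genes in that direction, but genes picked for a small p tend not to overlap. MSH3, a mismatch repair protein, had FPKM of 10.5, 19.4 and 16.8 in T-Cell dogs and 25.2, 32.9 and 48.0 in B-Cell dogs (difference −1.08, SE 0.28). TCOF1, which acts in ribosome production, had 5.27, 6.68 and 9.51 against 10.6, 15.9 and 36.9 (difference −1.24, SE 0.37). PABPC1, the cytoplasmic poly(A)-binding protein, had 116, 108 and 97.3 against 143, 219 and 304 (difference −1.005, SE 0.30). All 3 had overlapped before treatment, when dog 038 had MSH3 at 32.5, TCOF1 at 26.1 and PABPC1 at 346.

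TMEM131L did not overlap at either time, with FPKM of 14.8, 25.9 and 26.0 against 29.8 to 64.9 at 6 weeks (difference −0.98, SE 0.29). IL17RB, a receptor for interleukin-25, had 2.69, 1.57 and 3.71 against 4.66 to 9.41 (difference −1.06, SE 0.31). MBNL3, a splicing regulator, had 4.59, 0.790 and 5.18 against 6.14 to 14.3 (difference −1.45, SE 0.41). C31H21orf91 differed by −1.12 (SE 0.30), TM6SF1 by −1.49 (SE 0.41) and MCF2L2 by −1.75 (SE 0.49), and of these C31H21orf91 did not overlap. In MCF2L2 dogs 029 and 034 had 18 and 13.5, below the other B-Cell dogs (45.3 to 84.8), while in IL2RA they had 16.9 and 18.8, within the range of the others.

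**Figure D3:**
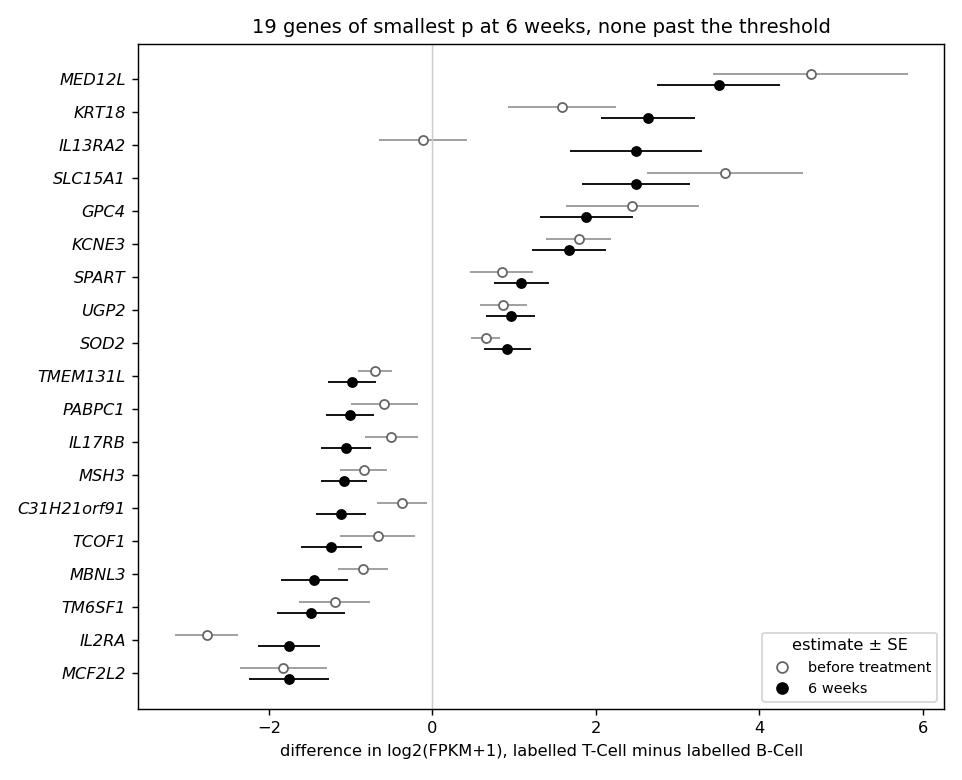
Difference in log2(FPKM+1) between 3 T-Cell and 7 B-Cell dogs for 19 of the 20 named genes of smallest p at 6 weeks (filled) and before treatment (open); bars are 1 SE on each side. IL13RA2 has a difference of 2.50 at 6 weeks and −0.11 before treatment, and the other 18 genes have the same sign at both times. Genes picked at 6 weeks and read in the same dogs favour a shared sign, and the share of all genes with the same sign is not given.

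Among IDs with no symbol, ENSCAFG00000029323 had FPKM of 2.14, 20.3 and 312 in dogs 028, 036 and 038 at 6 weeks and was listed at 0 in all 7 B-Cell dogs. Before treatment it was listed at 0 in all of these dogs but dog 034, which had 44.7. The difference of this ID at 6 weeks had a limma adjusted p of 0.739 with all dogs and 0.026 without dog 028. Dog 028 had the lowest T-Cell value, so leaving it out favours that call. This ID also passed the filter at 6 weeks through the T-Cell dogs alone. ENSCAFG00000026634 was lower, with 0.220, 0 and 0 in T-Cell dogs and 1.4 to 6.16 in B-Cell dogs. The identity of these IDs is not given by the tables used here.

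The lists of other cell types differed most by single dogs. The macrophage list was higher in T-Cell dogs for 12 of 12 members at 6 weeks (median 1.11, 2 at an unadjusted p under 0.05 against 2.66% of all genes in that direction, 0 past the threshold), against 5 of 10 before treatment (median 0.08). Genes were filtered at each time, so the members tested differ between the times, and the filter favours genes high at the time tested. The summed FPKM of the macrophage list at 6 weeks was 90.3 to 645 in T-Cell dogs and 48.0 to 311 in B-Cell dogs. The list's mean went from 1.31 to 1.85 in dog 028, from 1.44 to 3.55 in dog 036, from 3.35 to 5.10 in dog 038 and from 2.37 to 4.22 in dog 034. It changed by −0.44 to 0.33 in the other 6 B-Cell dogs. The 4 dogs named here include both dogs whose lineage levels moved most, 036 and 034, and the part of macrophages in those changes was not tested. Without dog 038 the median at 6 weeks was 0.21, and without dogs 038 and 029 it was 0.37.

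Of the macrophage genes, APOE, an apolipoprotein that macrophages secrete, had the smallest p of all named genes in the test of change. Its FPKM in dogs 028, 036 and 038 went from 12.3, 80.2 and 47.0 to 62.8, 273 and 188. In the B-Cell dogs the range went from 70.3 to 310 (median 127) down to 35.4 to 166 (median 85.1). The difference thus passed from −1.96 (SE 0.57) to 0.87 (SE 0.49), a change of 2.83 (SE 0.53, limma adjusted p = 0.269) in which the dogs of the groups did not overlap. T-Cell dogs changed more than all B-Cell dogs for 1.47% of genes. C1QA, a complement chain made by macrophages, went from 0.951, 1.27 and 19.8 to 5.54, 18.3 and 72.4 in T-Cell dogs, a change of the difference of 2.34 (SE 0.56). For C1QB it was 1.75 (SE 0.73).

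In the plasma cell list all 8 members had a higher change in T-Cell dogs, each with an unadjusted p under 0.05 (6.62% of all genes in that direction), and none passed the adjusted threshold. The median difference went from −1.11 before treatment to 0.45 at 6 weeks, a median change of 1.70, and at 6 weeks 5 members were higher and 3 lower in T-Cell dogs. The list's mean went from 3.76 to 6.84 in dog 038, from 2.86 to 4.19 in dog 036 and from 2.58 to 2.77 in dog 028. It changed by −0.41 to 0.29 in all 7 B-Cell dogs. XBP1, the transcription factor of secretory cells, had FPKM of 38.3, 79.5 and 471 in T-Cell dogs at 6 weeks and 33.8, 58.0 and 34.9 before treatment, and a median of 36.2 and 37.1 in B-Cell dogs. FKBP11, a folding factor of the secretory path, went from 3.48, 5.54 and 38.1 to 4.84, 21.8 and 311. SEC11C, a signal peptidase subunit, went from 200, 209 and 140 to 210, 192 and 410. At 6 weeks the list's summed FPKM was 261 to 1516 in T-Cell dogs and 254 to 584 in B-Cell dogs. The positive difference at 6 weeks was that of dog 038, and without it the median was −0.51. The median change was 0.73 without dogs 038 and 029, with 0 of 8 past the threshold.

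**Figure D4:**
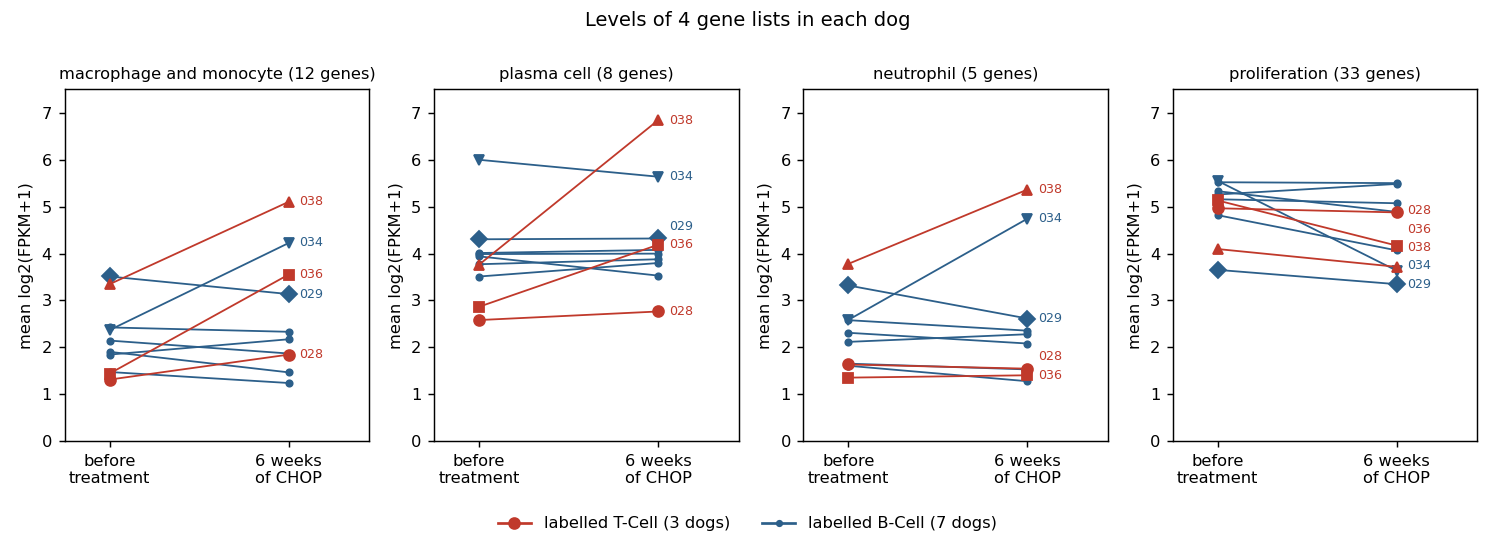
Mean log2(FPKM+1) over 4 gene lists in each dog before treatment and at 6 weeks; each line is 1 dog, red labelled T-Cell and blue labelled B-Cell. The macrophage mean is up in dogs 036, 038 and 034 and the plasma cell mean in dogs 036 and 038. The neutrophil mean is up in dogs 038 and 034, though the summed FPKM of that list fell in dog 038. The proliferation mean is down most in dog 034.

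The neutrophil, erythroid and stromal lists also had high mean levels in dog 038 at 6 weeks. Its summed neutrophil FPKM went the other way, from 406 before treatment to 263, below the 332 of dog 027 at 6 weeks. The stromal mean at 6 weeks was 2.875 in dog 038 and 2.871 in dog 034. The neutrophil list had a median difference of 0.85 at 6 weeks, which was −0.75 without dog 038. S100A8, a calcium-binding protein of neutrophils, had FPKM of 1.85, 0 and 119 in dogs 028, 036 and 038 at 6 weeks and 0.220 to 50.9 in B-Cell dogs, where dog 034 had the highest list mean. CAMP, an antimicrobial peptide, had 1.69, 0 and 44.2. The erythroid and platelet list had a median of 0.77, which was −0.61 without dog 038. AHSP, which binds alpha globin, had 0.824, 0 and 36.4 in T-Cell dogs. The stromal list had 8 of 10 positive differences with a median of 0.70 at 6 weeks. Leaving out dogs 038 and 029 gave medians at 6 weeks of −0.74 for the neutrophil list (5 tested), −0.59 for the erythroid and platelet list (2 tested) and 0.34 for the stromal list (6 tested). PECAM1, an endothelial adhesion molecule, had 6.30, 25.4 and 45.3 against 1.16, 10.3 and 42.7. The part of blood and stroma in the differences at 6 weeks was not tested.

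MHC class II genes, low in dogs 028 and 036 before treatment, were closer between groups at 6 weeks. The median difference of 6 genes was −1.28 before treatment and −0.56 at 6 weeks, and without dog 028 the latter was 0.11. These medians were −1.84 and −0.75 without dogs 038 and 029. In the change 0 of 6 members passed. DLA-DRA, the alpha chain of DR, had FPKM of 405, 190 and 1658 in T-Cell dogs before treatment and 390, 1400 and 1966 at 6 weeks, against medians of 1916 and 1784 in B-Cell dogs. DLA-DQA1 went from 123, 46.0 and 737 to 119, 372 and 807. CTSS, a protease that readies class II for peptide loading, differed by −1.15 (SE 0.52) before treatment and 0.16 (SE 0.38) at 6 weeks. Dog 036 was the T-Cell dog that moved most in DLA-DRA and DLA-DQA1, while dog 028 stayed low and dog 038 had been high from the start.

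Proliferation genes differed little between lineages at both times. The median over 33 genes was −0.30 at 6 weeks and −0.31 before treatment, with 29 of 33 lower in T-Cell dogs at each time and none at an unadjusted p under 0.05. TOP2A, the topoisomerase that doxorubicin acts on, had FPKM of 288, 115 and 42.8 in T-Cell dogs and 25.7, 140 and 371 in B-Cell dogs at 6 weeks (difference −0.03, SE 0.80). PCNA, the replication clamp, differed by −0.06 (SE 0.46) and MCM6, of the replicative helicase, by −0.30 (SE 0.45). The median at 6 weeks was −0.26 without dogs 038 and 029. The spread lay within the groups. The list mean of dog 034 went from 5.55 to 3.63 and that of dog 036 from 5.13 to 4.17, the largest decreases among the 10 dogs.

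Interleukin receptor chains had 3 of 14 members at an unadjusted p under 0.05 at 6 weeks (6.65% of all genes) and 2 whose groups did not overlap (1.69% of all genes), IL2RA and IL17RB, both given above. IL7R, the interleukin-7 receptor of T cells and early B cells, had FPKM of 20.2, 68.4 and 20.6 in T-Cell dogs and 0.853, 4.32 and 153 in B-Cell dogs (difference 1.71, SE 1.33). In dog 036 it had been 2.62 before treatment. IL6ST, the shared chain of the interleukin-6 family, had 124, 38.9 and 31.4 against 7.55, 19.1 and 60.8 (difference 1.42, SE 0.63). IL13RA1 differed by −0.26 (SE 0.66). The list's median was 0.26, which was −0.34 without dog 038 and −0.06 without dogs 038 and 029.

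Chemokine genes had no common direction at 6 weeks, with 4 of 8 positive and a median of −0.04 that became 0.01 under upper quartile scaling. CCR6, a homing receptor of B cells, had FPKM of 1.66, 28.9 and 21.7 in T-Cell dogs and 14.9, 43.1 and 93.1 in B-Cell dogs (difference −1.70, SE 0.69). Before treatment its groups did not overlap, with at most 22.8 against at least 23.2 (difference −3.11, SE 0.68). CXCL10, an interferon-induced chemokine, differed by −0.77 (SE 1.1) and CCL5, a T-cell and natural killer chemokine, by 0.01 (SE 0.93). Of the checkpoint list, BTLA, an inhibitory receptor, differed by −0.91 (SE 0.52), IDO1, which degrades tryptophan, by 1.63 (SE 1.11) and CD27, a costimulatory receptor, by 1.04 (SE 1.04). The cytotoxic list had a median of 0.09, which was −0.06 when FPKM were rescaled to the same sum, with GZMK, a granzyme, at −0.01 (SE 0.97) and TNFSF10, the death ligand TRAIL, at 0.00 (SE 0.55). Leaving out dogs 038 and 029 gave medians at 6 weeks of −0.51 for the chemokine list, 0.70 for the checkpoint list and −0.32 for the cytotoxic list.

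Ribosomal protein genes were lower in T-Cell dogs for 12 of 13 members at 6 weeks (median −0.44) and 13 of 13 before treatment (median −0.97), with 0 past the threshold. The medians were −0.39 and −1.42 without dogs 038 and 029. RPS18 had FPKM of 1981, 2057 and 1473 in T-Cell dogs and 1896, 4383 and 4982 in B-Cell dogs (difference −0.94, SE 0.46). RPS6 differed by −0.41 (SE 0.49) and RPS27 by −0.57 (SE 0.42). Mitochondrially encoded genes had 6 of 8 lower in T-Cell dogs (median −0.21, and −0.14 without dogs 038 and 029). MT-CO2 was 12010, 1511 and 5650 in T-Cell dogs against 3474 to 11840, and its lowest value was that of dog 036. MT-CO1 differed by −0.47 (SE 0.60) and MT-ATP6 by −0.60 (SE 0.62). Rescaling FPKM to the same sum shifted the median of all genes by −0.14 at 6 weeks, which leaves the sign of differences smaller than this open to the scaling.

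**Figure D5:**
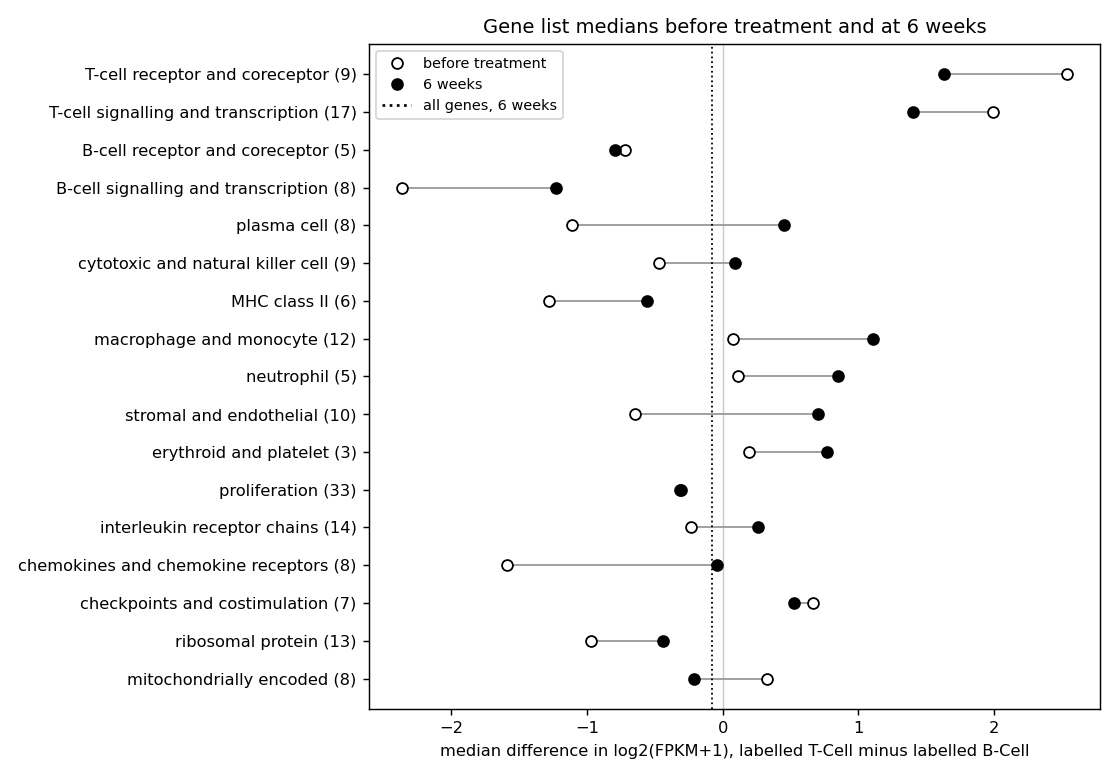
Median difference in log2(FPKM+1) between T-Cell and B-Cell dogs over 17 gene lists at 6 weeks and before treatment, beside the median of all genes tested. Genes were filtered at each time, so the members of a list can differ between the times, as in the stromal list (10 at 6 weeks, 6 before treatment). T-cell lists lie above and B-cell lists below the median of all genes at both times, and the plasma cell, stromal, cytotoxic, interleukin receptor and mitochondrial lists change sign between the times; the cytotoxic and chemokine medians at 6 weeks change sign with the scaling of FPKM.

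Of the 10 named genes with the smallest p in the test of change, all had an adjusted p of 0.269 to 0.307 (limma). ELL2, an elongation factor used by plasma cells, went from 3.50, 2.87 and 21.5 to 4.90, 18.6 and 139 in T-Cell dogs, while the B-Cell median stayed at 21.5 and 22.1 (change 1.90, SE 0.41). NUPR2 changed by 2.08 (SE 0.48) and the histone gene H2AC17 by 2.39 (SE 0.56). RASGRP1, an activator of Ras below the T-cell receptor, went from 98.4, 102 and 40.3 to 74.1, 19.7 and 11.8, against B-Cell medians of 47.4 and 44.8 (change −1.39, SE 0.36). Its difference was 0.81 before treatment and −0.58 at 6 weeks. SSH2, a cofilin phosphatase, changed by −1.31 (SE 0.35), TCHP by −1.1 (SE 0.30), NKRF, a repressor of NF-kappaB targets, by −0.97 (SE 0.27) and ERCC3, a DNA repair helicase, by −0.86 (SE 0.24).

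Calls of the change depended on dog 028. Without it, 177 of 14682 genes changed more upward (1.21%) and 47 more downward (0.32%) than in B-Cell dogs at an adjusted p under 0.05 (limma), against 0 with it and 0 without dog 036 or dog 038. Since these genes were called from dogs 036 and 038, their likeness in those dogs and not in dog 028 is set by the choice. Of the 224, 47 had a symbol. These included ELL2 (2.60, adjusted p = 0.00102), RASGRP1 (−1.93, adjusted p = 0.012), SSH2 and ERCC3. Named after their values were seen, TXNDC5, SLAMF7, FKBP11, PRDM1 and IRF4, all active in plasma cells, changed by 2.1 to 3.55, and PECAM1 and the scavenger receptor CD36 by 2.91 and 2.92. TXNDC5 changed by 2.16 in dog 036, 4.61 in dog 038 and 0.19 in dog 028, against −0.69 to 0.12 in B-Cell dogs. PRDM1, the repressor that sets the plasma cell state, changed by 1.79, 4.18 and 0.04 in the same dogs. Of the plasma cell list 5 of 8 passed in this direction, against 1.21% of all genes. The ID with the smallest p, ENSCAFG00000031403, has no symbol here and changed by 4.76 and 4.52 in dogs 036 and 038 and by −0.94 to 0 in B-Cell dogs. These calls compare 2 T-Cell dogs with 7, and 1 of the 2 is dog 038, whose library before treatment went against its label.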

How the data were processed

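RNA of fine needle aspirates was sequenced as single reads of 75 bases. Per the labels and methods, the authors aligned reads with HISAT2 2.1.0 to CanFam3.1 and assembled transcripts with StringTie 1.3.3. The FPKM values analysed are as deposited by the authors, scaled by transcript length and depth and not logged. The deposited read counts gave library totals only: across gene IDs, count and FPKM had a Spearman correlation of 0.0868 to 0.11 in the libraries of dogs 027, 028, 029 and 030 and 0.88 to 0.983 in the others.

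log2(FPKM+1) of gene IDs with a mean FPKM above 1 was tested with limma 3.58.1 (eBayes with trend) in R 4.3.3, with Benjamini-Hochberg adjusted p under 0.05. The change was tested on each dog's difference, which blocks on the animal; deviations of a dog's 2 libraries from their group means correlated in 9 of 10 dogs (r over 0.1, median 0.521). Among 48 pairs of libraries of a group none were copies (chi-square of counts at least 58.5 per degree of freedom). Dogs are separate animals, with 1 library per time.

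Symbols came from the study's supplementary tables, which list genes by p-value there, and named 5086 of 32704 gene IDs, so lists are incomplete. Members, gene lists and tests were chosen with earlier results of these data known. The named genes were the markers, the 10 of smallest p in each direction at 6 weeks, the 3 of highest mean FPKM in each list and the 5 of smallest p in each direction of the change; others are said to be named after their values were seen. Some named genes are not reported here. Alternatives were other pseudocounts, filters, variance priors and scalings, leaving out dogs, all 15 libraries of a time, and fits with and without the dog as block. Calling was tested on simulated data. Fold changes from FPKM have no counting interval.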

Additional observations from a re-analysis of the deposited data

Results flagged for a closer look

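In 78 sets of 7 B-Cell libraries (named genes, list means and FPKM sums at each time), a gap test at Dixon's 95% critical value marked 11 in which 1 dog stood apart from the other 6; chance marks about 1 in 20.

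Dog 034 stood apart at 6 weeks in KRT18 (FPKM 8.90, others 0.308 to 1.68), in the plasma cell list (mean log2(FPKM+1) 5.64, others 3.53 to 4.32) and in the neutrophil list (4.74, others 1.28 to 2.62). Before treatment it stood apart in the plasma cell list (6.00, others 3.51 to 4.30).

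Dog 029 stood apart before treatment in the means of 5 lists. These were T-cell signalling (5.50, others 1.74 to 3.12), B-cell signalling (4.34, others 4.98 to 5.33), stromal (2.91, others 0.794 to 1.52), proliferation (3.65, others 4.82 to 5.55) and interleukin receptors (3.73, others 2.07 to 2.39).

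Dog 030 stood apart before treatment in the MHC class II list (mean log2(FPKM+1) 7.54, others 6.14 to 6.70). Dog 033 stood apart at 6 weeks in its FPKM sum (2253000, others 817500 to 1118000).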

How the results depend on the processing

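At 6 weeks, 0 genes passed under each alternative run but leaving out dog 034 (1 higher, KRT18) or dog 028 (1 higher, ENSCAFG00000029323). In each case the dog left out was the one of its group nearest the other group in that gene. These calls are thus largely set by the choice. CD3E was 1.28 to 3.01 (adjusted p 0.478 to 1) and PAX5 −2.30 to −0.67 (0.355 to 0.997). Before treatment, the 2 genes higher and 3 lower became 0 and 8 with a pseudocount of 0.1, 0 and 1 with no filter or a mean FPKM above 5, 16 and 33 with all 15 libraries, and 1512 and 1630 without dogs 038 and 029, when CD3E was 4.85 (adjusted p 0.0033) and PAX5 −4.22 (0.000156). Leaving out single dogs gave 0 to 821 higher and 1 to 1001 lower, the most without dog 038 (adjusted p 0.0495 for CD3E and 0.000259 for PAX5), then without dog 029 (142 and 167), with CD3E at 2.03 to 4.23 and PAX5 at −4.10 to −1.29. For the change, leaving out dog 028 gave 177 higher and 47 lower, and leaving out dog 036 reversed CD3E (0.0126) and PAX5 (−0.74), while leaving out dog 038 gave −1.81 and 2.04. The causes were not tested. With the dog as a replicate block in a pooled fit of 20 libraries, 0 genes passed at 6 weeks (1369 at an unadjusted p under 0.05) and 2 higher and 2 lower before treatment. Without the block the change had 0 calls and 706 genes at an unadjusted p under 0.05, against 1842 with it, so the block changed no call of the change. Rescaling to the same FPKM sum moved the split of positive to negative differences at 6 weeks from 6813 and 8883 to 5046 and 10650, and shifted the median change by −0.17. With 3 T-Cell dogs, 1 of them against its label, and no counting depth behind an FPKM, even large differences could go uncalled. MED12L, with a difference of 3.50, did not pass at 6 weeks (limma adjusted p = 0.739). The 0 calls at 6 weeks thus do not show that no large lineage difference was left.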
